A study of Mus musculus with 6 samples.

Results

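Hap1, the gene for huntingtin-associated protein 1, was examined together with 9 genes for its relatives, partners and motor proteins in mouse cerebral cortex. The 10 genes were picked by name from 33274 rows of the deposited count table. They are Hap1, its relatives Trak1 and Trak2, its partners Htt and Ahi1, the kinesin-1 heavy chains Kif5a, Kif5b and Kif5c, the kinesin light chain Klc1 and the dynactin gene Dctn1. Each symbol had 1 row, and all 10 genes passed the expression filter. Hap1 was included because it had passed the significance threshold in these same libraries. Its values between the groups are therefore a description and no test of it is offered. The other 9 were chosen for their known relation to Hap1.

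The cortex came from 6-week-old, wild-type females of the outbred ICR stock. None of these animals was dosed. Their paternal grandsires had received methylphenidate (15 mg/kg), which blocks dopamine and noradrenaline reuptake, or saline alone at 10 mL/kg, injected under the skin on 21 days from 6 weeks of age. Descent ran from the grandsire through 1 son per litter, and all dams were untreated. Each lineage gave 3 libraries of poly(A) RNA, with 23896752 to 28120640 counts per library. The labels do not name the litter or grandsire of an animal, so the p-values rest only on the spread among these 6 animals, which may include relatives. The comparison asks whether cortical expression differs with the treatment of the grandsire.

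Hap1 protein is an adaptor of neuronal transport. It binds huntingtin, the protein expanded in Huntington disease, and links cargo vesicles to kinesin-1, which moves toward the plus ends of microtubules, and to dynein through dynactin, for movement toward the minus ends. It is most abundant in the hypothalamus and other limbic and basal forebrain regions, where it forms cytoplasmic stigmoid bodies, and it is less abundant in the cerebral cortex. Trak1 and Trak2 share a conserved N-terminal region with Hap1 and carry mitochondria along axons and dendrites.

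The promoter of Hap1 is shown because Hap1 is the member whose level differed between the lineages. Promoter sequences were matched by symbol for 8 of the 10 genes in a RefSeq table of the GRCm38.p6 build. The window for Hap1 runs from 250 bases before to 50 bases after an annotated start, at chr11:100356092-100356391 on the minus strand, and is written 5′ to 3′ with CG pairs in capitals.
Hap1: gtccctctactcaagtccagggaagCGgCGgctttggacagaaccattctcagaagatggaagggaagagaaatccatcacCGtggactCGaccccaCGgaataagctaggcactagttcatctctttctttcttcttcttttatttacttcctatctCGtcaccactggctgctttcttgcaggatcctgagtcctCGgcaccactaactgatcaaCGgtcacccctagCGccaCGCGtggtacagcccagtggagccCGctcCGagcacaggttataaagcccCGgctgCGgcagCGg
It holds 16 CG pairs, where the median over 32851 promoter windows of that length was 7 and 67.0% of them held fewer. The counts carry no information on methylation or factor binding at this window.

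Hap1 was the only one of the 10 genes that was higher in every methylphenidate library than in every saline library. It was measured at 65.5, 63.6 and 66.9 CPM (TMM-scaled counts relative to library size) for saline replicates 1 to 3 and at 102, 133 and 138 CPM in methylphenidate replicates 1 to 3. The saline libraries lay close together, and among the methylphenidate libraries replicate 1 was the lowest. Here and below, a log2 difference is the fitted log2 fold change, methylphenidate minus saline, with its standard error (SE). The group means were 65.3 ± 1.65 and 124 ± 19.8 CPM (SD, n = 3 per group), a log2 difference of 0.93 ± 0.11 (SE; 95% interval 0.69 to 1.17), or 1.91-fold. This is the comparison that chose Hap1, as 1 of 5 genes past an edgeR adjusted p of 0.05 among 18327 tested, or 0.0273% in either direction, and 1 of the 4 that were higher (0.0218%). That call was lost without any 1 saline library, without methylphenidate replicate 2 and without methylphenidate replicate 3 (edgeR adjusted p 0.0582 to 0.161) and with no filter on low counts (0.124), while the log2 fold change stayed between 0.85 and 1.06 without any 1 of the 6 libraries. In bulk tissue, more cells that express Hap1 and more Hap1 RNA per cell cannot be told apart.

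**Figure D1:**
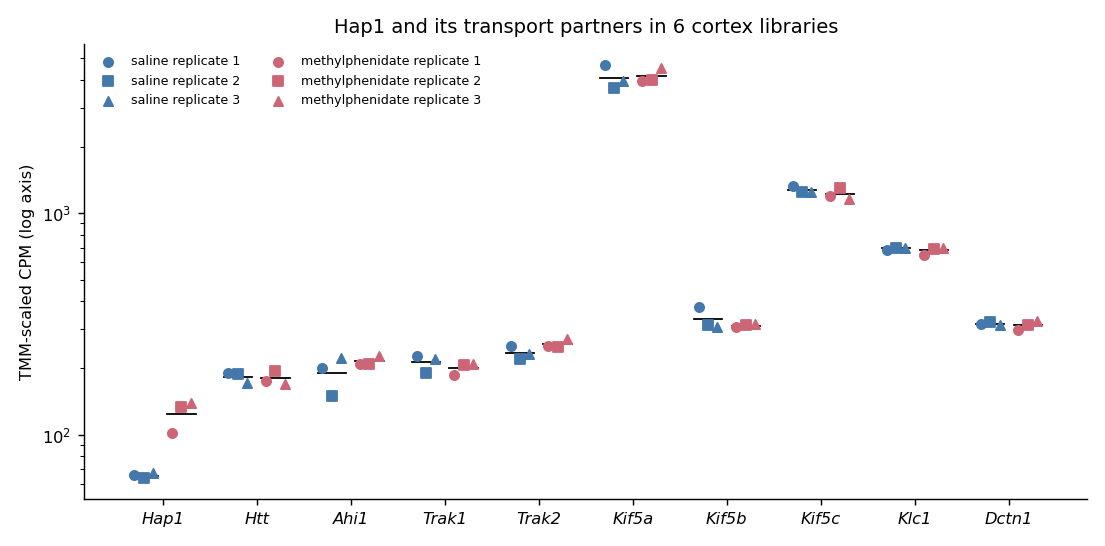
TMM-scaled CPM on a log axis for the 10 genes in each of the 6 libraries, with saline in blue, methylphenidate in red, symbols for replicates and black bars for group means. The 3 methylphenidate libraries of Hap1, at 102 to 138 CPM, lie above its saline libraries at 63.6 to 66.9 CPM, while the groups overlap in the other 9 genes.

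None of the other 9 genes passed the threshold in edgeR, DESeq2 or limma-voom, and 0 of the 9 had an unadjusted p under 0.05 in edgeR, where 7.51% of all tested genes did. Their log2 fold changes ran from -0.09 to 0.18, 3 above 0 and 6 below, with a median of -0.02 beside 0.00 over all tested genes. The groups overlapped in all 9, while over all tested genes they did not overlap in 13.5% (6.97% higher and 6.51% lower in the methylphenidate lineage). The 95% interval of no member among the 9 reached above 0.45. The log2 difference of 0.93 measured for Hap1 is larger, but it is the value on which Hap1 was chosen. Small differences stay below what 3 libraries a group can resolve, since the standard errors of the 9 genes lay between 0.06 and 0.12.

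Htt encodes huntingtin itself, a large scaffold protein of vesicle transport. It was at 190.0, 187 and 171 CPM for saline replicates 1 to 3 and at 175, 194 and 169.7 CPM in methylphenidate replicates 1 to 3. The lowest and the highest library were both of the methylphenidate lineage. Its log2 fold change was -0.02 (SE 0.07, 95% interval -0.19 to 0.14, edgeR adjusted p = 0.967).

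Ahi1 encodes jouberin, a protein of the ciliary transition zone that forms a stable complex with Hap1 in neurons and is mutated in Joubert syndrome. Its level was 199, 149.9 and 222 CPM in the saline libraries and 209.6, 209 and 226 CPM across the methylphenidate libraries. Saline replicate 2 stood below the other 5 libraries. The log2 difference of 0.18 ± 0.12 (SE; 95% interval -0.10 to 0.45, edgeR adjusted p = 0.798) was the largest of the 9 and was 0.03 without saline replicate 2.

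Trak1 and Trak2 encode the 2 mitochondrial adaptors related to Hap1, which join kinesin-1 to the Miro GTPases of the outer mitochondrial membrane. Trak1 was at 227, 189.5 and 220.2 CPM across the saline libraries and at 186, 207 and 209.6 CPM across the methylphenidate libraries, with a log2 difference of -0.08 ± 0.08 (SE; adjusted p = 0.882 by edgeR). Trak2 was at 251, 220.4 and 231 CPM across the saline libraries and at 251, 248 and 271 CPM across the methylphenidate libraries, with a log2 difference of 0.13 ± 0.07 (SE; adjusted p = 0.720 by edgeR). The groups overlapped in both genes, and the 2 estimates had opposite signs. The ratio of Trak1 to Trak2 counts, which needs no scaling between libraries, was 0.907, 0.860 and 0.953 across the saline libraries and 0.741, 0.836 and 0.774 across the methylphenidate libraries. All 3 methylphenidate ratios were below all 3 saline ratios, with means of 0.784 ± 0.048 and 0.907 ± 0.047 (SD, n = 3 per group; two-sided exact permutation p = 0.1, the smallest that 3 against 3 can give, and 0.4 after Benjamini-Hochberg adjustment over 4 ratios within families). This ratio does not pass a threshold of 0.05 and could not have done so.

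Kif5a, Kif5b and Kif5c encode the heavy chains of kinesin-1, which hold its motor domain, and Kif5a and Kif5c are the neuronal forms. Kif5a was at 4689, 3671 and 3947 CPM across the saline libraries and at 3954, 4015 and 4519 CPM across the methylphenidate libraries. Both groups spanned most of the same range, and the log2 fold change was 0.02 ± 0.10 (SE; adjusted p = 0.978 by edgeR). Kif5c was at 1329.9, 1242 and 1245 CPM across the saline libraries and at 1192, 1307 and 1159.7 CPM across the methylphenidate libraries, with a log2 difference of -0.06 ± 0.07 (SE; adjusted p = 0.887 by edgeR). Kif5b, the heavy chain of most cell types, was at 378, 313 and 306 CPM across the saline libraries and at 307, 311 and 315 CPM across the methylphenidate libraries. Its saline replicate 1 stood above the other 5, and the log2 difference of -0.09 ± 0.08 (SE; adjusted p = 0.859 by edgeR) became 0.01 without that library. Of the counts of the 3 heavy chain genes together, Kif5a took 71.8 ± 1.53% with saline descent and 73.1 ± 2.11% with methylphenidate descent, Kif5c 22.4 ± 1.5% and 21.5 ± 1.96%, and Kif5b 5.82 ± 0.23% and 5.47 ± 0.19% (SD, n = 3 per group). Two-sided exact permutation tests of these shares gave p = 0.5, 0.6 and 0.2 for Kif5a, Kif5c and Kif5b, each against a smallest possible p of 0.1.

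Klc1 encodes the light chain that couples kinesin-1 to many of its cargoes in neurons. It was at 684, 699 and 698 CPM across the saline libraries and at 651, 692 and 699 CPM across the methylphenidate libraries, with a log2 difference of -0.03 ± 0.06 (SE; 95% interval -0.16 to 0.10, edgeR adjusted p = 0.949). Dctn1 encodes p150Glued, the dynactin subunit that binds dynein, microtubules and Hap1. It was at 316, 322 and 312 CPM across the saline libraries and at 298, 314 and 326 CPM across the methylphenidate libraries, with a log2 difference of -0.02 ± 0.06 (SE; 95% interval -0.15 to 0.11, edgeR adjusted p = 0.967). These 2 genes had the narrowest intervals of the 10, and methylphenidate replicate 1 was the lowest library for both.

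Hap1 was also set against each partner within a library, as the log2 ratio of their counts, which does not depend on scaling between libraries. Against Htt, the ratio was -1.54, -1.56 and -1.35 for saline replicates 1 to 3 and -0.79, -0.54 and -0.29 for methylphenidate replicates 1 to 3. Hap1 counts therefore came closer to those of Htt in every methylphenidate library. Against Ahi1, the ratio was -1.61, -1.24 and -1.73 across the saline libraries and -1.04, -0.65 and -0.71 across the methylphenidate libraries, the narrowest gap between the groups of any partner. The mean difference between lineages ran from 0.72 against Ahi1 to 1.01 against Kif5b, and the groups did not overlap for any of the 9 partners. All 9 ratios share the Hap1 counts on which Hap1 was chosen, so they are 1 observation seen from 9 sides and carry no test.

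**Figure D2:**
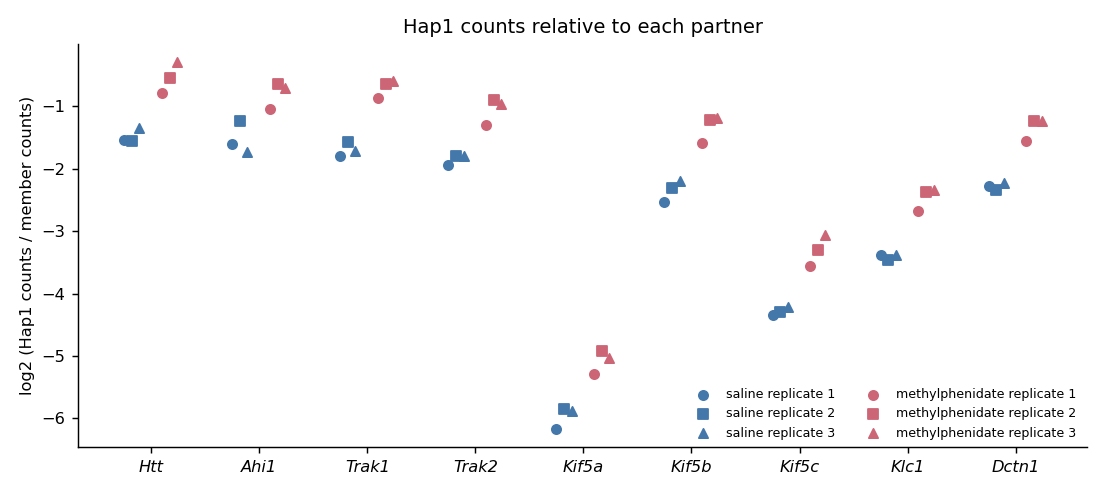
Log2 ratio of Hap1 counts to the counts of each of 9 partners in the 6 libraries, with saline in blue and methylphenidate in red. The methylphenidate libraries lie above the saline libraries for each partner, by 0.72 (Ahi1) to 1.01 (Kif5b) on average.

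To compare levels between genes, CPM was divided by the exon length of each gene in kilobases, taken as the union of annotated exons. In the saline lineage the order was Kif5a at 587 ± 75.3 CPM per kb, Kif5c at 178 ± 7.0, Klc1 at 170.4 ± 2.04, Dctn1 at 48.7 ± 0.82 and Kif5b at 41.6 ± 4.95. Below them came Trak2 at 33.0 ± 2.16 CPM per kb, Ahi1 at 27.0 ± 5.21, Hap1 at 17.3 ± 0.44, Trak1 at 16.9 ± 1.60 and Htt at 7.47 ± 0.43 (SD, n = 3). Of neighbours in this order, the saline libraries overlapped for Trak2 and Ahi1 and for Hap1 and Trak1. In the methylphenidate lineage Hap1, at 33.1 ± 5.26 CPM per kb, lay between Trak2 at 36.2 ± 1.76 and Ahi1 at 30.5 ± 1.41 and overlapped both. Kif5a per kb was 33.8 times the level of Hap1 with saline descent and 18.0 times with methylphenidate descent. The order depends on the transcripts assumed: with the longest annotated transcript as the length, Trak1 stood at 39.6 CPM per kb in the saline lineage, above Ahi1 at 39.2 and Trak2 at 37.8, and Klc1 stood above Kif5c, while Hap1 at 19.7 was above Htt alone.

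Markers of regions rich in Hap1 also had higher summed levels in the methylphenidate libraries. The list of 15 hypothalamic and basal forebrain markers, regions where Hap1 is abundant, had a summed level of 5.08 to 6.29 CPM across the saline libraries and of 15.5, 13.1 and 39.2 CPM in methylphenidate replicates 1 to 3. All 9 of its tested members had a log2 fold change above 0 (median 1.99), where 50.3% of all tested genes did. By edgeR, 5 of the 9 had an unadjusted p under 0.05 (7.51% of all tested genes), and the smallest adjusted p was 0.196. In 4 of the 9 every methylphenidate library lay above every saline library (6.97% of all tested genes). Some of the 9 passed the expression filter only with the help of the methylphenidate libraries. Their signs, these counts of genes and the median are therefore partly set by the filter. Slc18a3 had 6, 2 and 6 counts with saline descent and 19, 26 and 34 with methylphenidate descent, and Nkx2-1 had 20, 0 and 0 against 19, 10 and 33. Slc5a7, the choline transporter gene of cholinergic neurons, was at 0.762, 1.02 and 0.911 CPM across the saline libraries and at 4.19, 1.65 and 5.98 CPM across the methylphenidate libraries. Pomc, the opiomelanocortin precursor, was at 19.4 CPM in methylphenidate replicate 3 and between 1.49 and 2.58 CPM in the other 5 libraries. The 6 markers below the expression filter had at most 22 counts in any library. The hypocretin gene Hcrt had no counts in the 3 saline libraries and 4, 1 and 2 counts in methylphenidate replicates 1 to 3, and the hypothalamic regulator Sim1 had none in the saline libraries and 4, 2 and 0. Pmch, the melanin-concentrating hormone gene, had 0, 2 and 1 counts with saline descent and 3, 5 and 17 with methylphenidate descent. Otp, a hypothalamic homeobox gene, had 0, 4 and 0 against 2, 22 and 4 counts, the galanin gene Gal 2, 0 and 6 against 6, 0 and 20, and the oxytocin gene Oxt 0, 3 and 4 against 0, 0 and 6. Totals over the 3 libraries were thus higher with methylphenidate descent in 5 of these 6 genes and lower in Oxt.

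The 12 striatal projection neuron markers summed to 403, 344 and 324 CPM across the saline libraries and to 623, 375 and 754 CPM across the methylphenidate libraries. Of 11 tested members 10 were above 0 (median log2 fold change 0.98), where 50.3% of all tested genes were. By edgeR, 8 of the 11 had an unadjusted p under 0.05 (7.51% of all tested genes), all of them higher. In 5 of the 11 every methylphenidate library lay above every saline library (6.97% of all tested genes). The smallest edgeR adjusted p was 0.220. Six3, 1 of the 11, passed the expression filter with the help of the methylphenidate libraries. It had 23, 7 and 8 counts with saline descent and 182, 36 and 83 with methylphenidate descent. Methylphenidate replicate 2 had a striatal sum within the saline range and a Hap1 level of 133 CPM. Methylphenidate replicate 1 had a striatal sum of 623 CPM and the lowest Hap1 level of its group, 102 CPM. In the hypothalamic list methylphenidate replicate 2 had the lowest sum of its group, 13.1 CPM, which was above the highest saline sum of 6.29 CPM. The part of either region in the Hap1 difference was not tested.

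**Figure D3:**
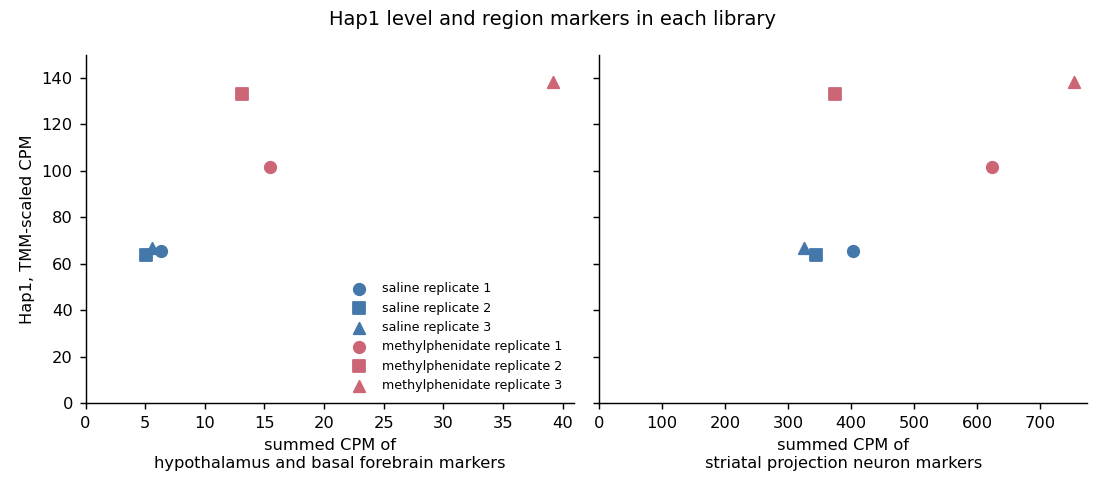
Hap1 level (TMM-scaled CPM) in each of the 6 libraries against the summed CPM of 15 hypothalamic and basal forebrain markers (left) and of 12 striatal projection neuron markers (right), with saline in blue and methylphenidate in red. Methylphenidate replicate 2, with Hap1 at 133 CPM, has a striatal sum of 375 CPM, inside the saline range. Its hypothalamic and basal forebrain sum of 13.1 CPM is above the saline range.

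Markers of the labelled tissue were abundant in both groups: 10 cortical excitatory neuron markers summed to 4976 to 5241 CPM in the saline and 4875 to 5479 CPM across the methylphenidate libraries. Interneuron, astrocyte and oligodendrocyte marker sums overlapped between the groups, as did choroid plexus markers, which ranged from 24.9 to 661 CPM over the 6 libraries. Single genes within a sum went in different directions. By edgeR, 5 of the 10 cortical excitatory markers were lower with an unadjusted p under 0.05 and 1 was higher. Among 8 interneuron markers 2 were lower and 2 higher at that p, which 7.51% of all tested genes reached. The smallest edgeR adjusted p was 0.256 and 0.534 in these 2 lists. The 8 microglia markers summed to 359.8 to 383 CPM across the saline libraries and to 363, 366 and 467 CPM in methylphenidate replicates 1 to 3. Over the 8 microglia markers the median log2 difference was 0.07, with 6 above 0 and 2 below. Of the 8, only Aif1 and the complement gene C1qa were higher in every methylphenidate library than in every saline library. Of all tested genes, 6.97% were. Aif1 and C1qa had log2 differences of 0.93 ± 0.20 (SE; adjusted p = 0.226 by edgeR) and 0.37 ± 0.13 (SE; adjusted p = 0.572 by edgeR). Their part in the Hap1 difference was not tested.

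Genes beside Hap1 on chromosome 11 were looked at for a change over the region, taking the 5 nearest tested genes on each side in the GENCODE M21 annotation. Their log2 fold changes ran from -0.13 to 1.86 with a median of 0.13, 7 above 0 and 3 below, and the smallest edgeR adjusted p was 0.627. Eif1, a translation initiation factor gene, and Jup, the plakoglobin gene, are close neighbours on either side and had log2 differences of -0.04 ± 0.07 and 0.13 ± 0.09. The nearest tested gene, Gm10039, had one of 0.45 ± 0.28. Krt20, A830036E02Rik and P3h4, 3 of the 10, had an unadjusted p under 0.05 (7.51% of all tested genes) and non-overlapping groups (13.5%), with log2 differences of 1.86 ± 0.75, 1.67 ± 0.71 and 0.37 ± 0.15. In that annotation Krt20 and A830036E02Rik lie 909 and 922 kb from Hap1, and P3h4 lies 52.3 kb away. Gm20394, which overlaps Hap1 on the same strand outside its exons, had 7 counts over the saline and 17 over the methylphenidate libraries, too few to alter the level of Hap1. Among the partners, Klc1 shares exon sequence with Xrcc3 on the opposite strand. Whether counting used strand is not known from the labels, but Xrcc3 had no more than 284 counts in any library where Klc1 had at least 15694.

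The wider transport machinery was followed in 6 lists with 71 genes, of which 70 were tested. None passed the threshold in edgeR or limma-voom, 6 had an unadjusted p under 0.05 in edgeR (8.57%, against 7.51% of all tested genes), and DESeq2 called Kalrn alone. All 6 were lower in the methylphenidate lineage. The groups did not overlap in 9 of the 70 genes (12.9%, against 13.5% of all tested genes), 8 of them lower and 1 higher. Of the 70, 26 had a log2 fold change above 0 and 44 below, with a median of -0.02, and 50.3% of all tested genes were above 0.

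**Figure D4:**
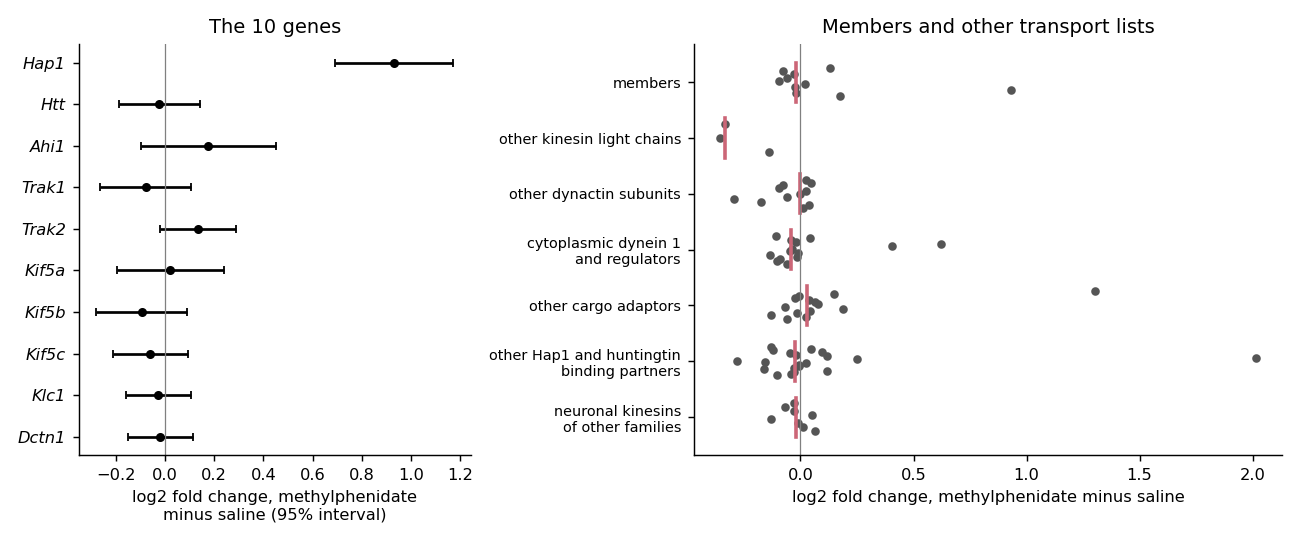
Log2 fold change, methylphenidate minus saline, of the 10 genes with 95% intervals (left) and of every tested gene of the members and of 6 other transport lists, with red bars for list medians (right). Hap1 stands at 0.93 and the other 9 members between -0.09 and 0.18.

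Among other partners of Hap1 and huntingtin, 7 of 20 tested genes were above 0 and 13 below, with a median of -0.02. Kalrn, the gene for the guanine nucleotide exchange factor kalirin, which binds Hap1, was at 816, 872 and 794 CPM across the saline libraries and at 674, 734 and 636 CPM across the methylphenidate libraries. All 3 methylphenidate libraries were below all 3 saline libraries, the opposite order to Hap1, with a log2 difference of -0.28 ± 0.07. It did not pass in edgeR (adjusted p = 0.330) and did in DESeq2 (adjusted p = 0.0243). Zdhhc17, a palmitoyltransferase of huntingtin, had a log2 difference of -0.13 ± 0.07, and Bdnf, a neurotrophin whose vesicles huntingtin and Hap1 transport, one of -0.04 ± 0.11.

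The other kinesin light chains had estimates below 0 in 3 of 3 genes, with a median of -0.33 that was -0.15 without methylphenidate replicate 3. Klc2, the main one by level, was at 259, 252 and 241 CPM across the saline libraries and at 226, 230.2 and 226 CPM across the methylphenidate libraries. Its groups did not overlap, but its log2 difference of -0.14 ± 0.06 did not pass (edgeR adjusted p = 0.630). Klc4 and Klc3 had log2 differences of -0.33 ± 0.17 and -0.35 ± 0.33, and methylphenidate replicate 3 was low for Klc4, at 12.8 CPM beside 20.2 to 24.7 CPM in the other libraries.

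The 11 other dynactin genes had a median log2 difference of 0.00, 5 above 0 and 6 below. Actr1b, an actin-related protein of the dynactin filament, was at 393, 399 and 403 CPM across the saline libraries and at 372, 345 and 343 CPM across the methylphenidate libraries. The groups did not overlap, with a log2 difference of -0.17 ± 0.06 (SE; adjusted p = 0.562 by edgeR). Capza1, which caps that filament, had one of -0.29 ± 0.13 and Dctn3 one of -0.10 ± 0.07. Of 14 genes for cytoplasmic dynein and its regulators, 3 were above 0 and 11 below, with a median of -0.04. Dync1li2, a dynein light intermediate chain, had a log2 difference of -0.13 ± 0.06 (SE; adjusted p = 0.643 by edgeR), and the dynein regulator Pafah1b1 and the intermediate chain Dync1i2 had -0.11 ± 0.06 and -0.09 ± 0.07.

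Other cargo adaptors, the genes whose products do work like that of Hap1, had a median of 0.03 on the log2 scale over 14 tested genes, 8 above 0 and 6 below. Rhot2, a Miro GTPase to which the Trak proteins bind, had a log2 difference of 0.15 ± 0.09 (SE; adjusted p = 0.773 by edgeR). Bicdl1, a dynein adaptor of Rab6 vesicles, had one of -0.13 ± 0.11, and Spdl1, a dynein adaptor of mitosis, one of 1.30 ± 0.79 at no more than 0.660 CPM. Kinesins of other families had a median of -0.02 over 8 genes. Kif21a had a log2 difference of -0.13 ± 0.06 (SE; adjusted p = 0.658 by edgeR), Kif3b, a motor subunit of kinesin-2, one of -0.07 ± 0.07 and Kif21b one of 0.05 ± 0.10.

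The pattern of Hap1 over the 6 libraries was compared with that of 11525 named genes at 5 CPM or more, by Pearson's r of log2 CPM, as a description. The closest were Gnptg (r = 0.997), Tmem132e (0.995), Arhgap6 (0.992), Cntn5 (0.990) and Cadm1 (0.989), and the most opposite were Ubxn2a (-0.994), Gpank1 (-0.993) and Bccip (-0.988). Of these, Tmem132e was at 8.21 to 9.44 CPM across the saline libraries and at 13.9, 19.6 and 19.4 CPM across the methylphenidate libraries. Gnptg had a log2 difference of 0.13 ± 0.07, so a high r does not mean a change of like size. Of the 11525 genes, 201 had r above 0.9, or 1.74%. Among the partners Trak2 had the highest r, 0.74, then Ahi1 with 0.54, while the other 7 lay between -0.39 and 0.21. This measure holds the group difference by which Hap1 was chosen. With the group means removed, r with Hap1 over the same 6 libraries was 0.94 for Klc1, 0.83 for Dctn1 and 0.66 for Trak1, and between 0.05 and 0.38 for the other 6 partners. The libraries share their depth and scaling, and these values carry no test.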

How the data were processed

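Poly(A) libraries from a directional kit were sequenced, per the labels' protocols. HISAT2 2.2.1, StringTie 2.2.1, fastp 0.23.4, bcl2fastq 2.19 and the build GRCm39 are named, without their roles, in the submitters' processing notes. The annotation release and strand setting were not given in the sources used here. Raw counts were deposited by the authors as whole numbers for each Ensembl gene in each library. Of 33274 rows, 985 had no symbol (at most 0.175% of a library).

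In R 4.3.3, edgeR 4.0.16 was run on all rows with filterByExpr, TMM scaling, group as the only term and the two-sided quasi-likelihood test, and p-values were adjusted by Benjamini-Hochberg over 18327 genes with 0.05 as the threshold. Log2 fold changes have standard errors from the F statistic and 95% intervals from its degrees of freedom. Log2 CPM used a prior count of 2. Libraries of a group differed by a chi-square of 13.0 to 19.9 per degree of freedom, far above sampling noise, so none was a duplicate. Exon lengths and neighbours came from GENCODE M21 (GRCm38), a different build from that of the counts. The analysis was tested on simulated data.

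The members and lists were chosen with earlier results of these data known. Named genes were the members, up to 3 genes of smallest p in each transport list, the 5 genes most like Hap1 and the 3 most opposite, and leading markers. A gene that this rule takes is not reported here. Bdnf, Aif1, C1qa, the hypothalamic markers below the filter, the neighbours of Hap1, the ratios within the Trak and Kif5 families and the levels per length were added after the data were seen. Alternatives were other scalings and filters, DESeq2 1.42.0, limma-voom (limma 3.58.1), fits without each library in turn and a replicate block.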

Additional observations from a re-analysis of the deposited data

How the results depend on the processing

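The log2 fold change of Hap1, which was chosen on these same libraries, was above 0 in all 15 alternatives, between 0.85 and 1.06. Its call was lost in 7 of them: with no filter on low counts (0.93, edgeR adjusted p = 0.124), with the replicate block (0.92, edgeR adjusted p = 0.0729) and in 5 of the fits that left out 1 library, whose estimates over all 6 ran from 0.85 to 1.06. The numbers in the titles do not pair the animals as far as the labels say, and same-numbered libraries had correlations of deviations of -0.04, 0.09 and -0.02. With the replicate block 2 genes passed the threshold, where 5 did without it. The count of genes past it was 10 with total counts, 3 with no filter, 149 with DESeq2 and 2 to 26 without 1 library. None of the other 9 members was called in any alternative, where their log2 fold changes lay between -0.15 and 0.30 and their smallest adjusted p was 0.675. Among the 70 transport genes, the count past the threshold was 1 with DESeq2 (Kalrn). The cause of these differences was not tested. Per-length levels with the longest transcript were an alternative chosen after seeing the data. Levels under 3 counts (0.106 to 0.124 CPM in a library) cannot be told from 0, for counting error only. This touches Spdl1 and Gm20394. Among the hypothalamic and basal forebrain markers it touches Hcrt, Sim1, Pmch, Otp, Gal, Oxt, Avp, Nkx2-1 and Slc18a3, each in at least 1 library.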
